A study of Mus musculus with 6 samples.

Results

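Integrins are cell surface receptors made of an alpha and a beta subunit that bind matrix proteins outside the cell. Inside the cell, talins and kindlins bind the beta subunit and switch the receptor on. Focal adhesions then form around it, with tensins, vinculin, alpha-actinin, filamin and zyxin tying the receptor to actin filaments and with the kinases FAK and SRC passing the signal on. In the blastocyst, integrins and their ligands sit where the primitive endoderm lays down its basement membrane and where the trophectoderm meets the uterine wall.

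The expression of 37 genes of this machinery was examined in mouse blastocysts, out of 49993 genes in the deposited count table. They were taken by gene symbol and comprise 4 tensins, 7 integrin alpha subunits, 3 integrin beta subunits, 2 integrin ligands, 5 regulators of integrin activation, 4 genes of the ILK complex, 4 adhesion signalling genes and 8 actin linkers. All 37 symbols were found in the table. The list was drawn up with earlier results of the comparison between the groups known, among them the difference of Tns3. The values of the members by group are therefore a description, and p-values are given only to place members in the fit over all genes.

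RNA-seq had been made from 3 blastocyst samples that developed in the mother and from 3 that were cultured in vitro. The mothers of both groups were superovulated with 10 IU of pregnant mare serum gonadotrophin (PMSG) and, 48 h after it, 10 IU of the gonadotrophin hCG, and then mated naturally. Blastocysts of the in vivo group came from uterine flushing at day 3.5. The cultured embryos were removed as zygotes 19 to 21 h after hCG, freed of cumulus cells with hyaluronidase and kept in KSOM medium at 37 °C and 5% CO2. Blastocysts of both groups were picked by stage and morphology before freezing. The sources used here give no mouse strain, age of the mothers or age of the cultured blastocysts. Whether libraries within a group had separate mothers is not in the labels. P-values thus set a group difference only against the spread among these samples, and some of that spread may be technical.

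Totals ranged from 6918288 to 17643429 counts per library, and 3 counts, the most that a count of 0 allows, correspond to 0.215 to 0.525 CPM, the count scaled to library depth, which covers counting error only. All CPM values use library sizes corrected by TMM, the trimmed mean of M values. Libraries of a group were not equally alike: over the 14301 genes tested, in vivo replicates 1 and 2 had a Spearman correlation of 0.942, whereas in vivo replicate 3 correlated with them at 0.786 and 0.793. Over the tested members alone these correlations were 0.964, 0.684 and 0.709. In vitro replicate 2 had 7494 counts of Xist, against 8 to 341 in the other libraries. The labels name the source as inner cell mass and the cell type as embryonic stem cell, whereas the design text speaks of blastocysts. Trophectoderm markers were present in all 6 libraries, with Krt8 at 195 to 671 CPM, Gata3 at 97.9 to 274 CPM and Cdx2 at 3.03 to 29.7 CPM, beside epiblast markers such as Nanog at 91.5 to 170 CPM. In such bulk samples, fewer cells of a type and less RNA per cell cannot be told apart.

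Of the 37 members, 32 had enough counts to be tested. The remaining 5 were near or at 0. The collagen receptor subunit Itga2 had 0 counts in all 6 libraries. The platelet integrin pair was close to it: Itga2b had 8 counts, all in in vivo replicate 2, and its partner Itgb3 had 4 counts in in vivo replicate 2 and 1 count in in vitro replicate 3. The tensins Tns2 and Tns4 had at most 29 and 12 counts in a library. Blood and platelet markers were also scarce, with 7 of 10 at 0 in all libraries, Pf4 and Ptprc among them, and a summed level of at most 4.92 CPM.

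The largest fitted log2 fold change and the smallest p among the members were those of Tns3, which encodes tensin 3, an adaptor that binds integrin tails and actin. It lies on chromosome 11 at 8431652 to 8664758 (GRCm38). Tns3 was at 28.0, 20.7 and 37.7 CPM in the 3 in vivo libraries and at 249, 147 and 199 CPM in the 3 in vitro libraries. The lowest in vitro library was thus well above the highest in vivo library. The means were 28.8 ± 8.52 and 198 ± 51.1 CPM (SD, n = 3 each), and the fit gave a log2 fold change of 2.78 ± 0.38 (SE), where positive values are higher in vitro. It stayed between 2.58 and 3.03 when each library was left out in turn, and was 3.03 without in vivo replicate 3. Adjusted over all genes (Benjamini-Hochberg), its p was 0.306 by edgeR's quasi-likelihood test. The adjusted p was 0.0459 in the newer form of that test, 2.71e-08 by DESeq2 and 0.00679 by limma-voom.

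Tns3 was also the main tensin. Per kilobase of transcript, the scale on which genes of different length can be compared, it made up 90.9%, 71.0% and 59.6% of the summed tensin level in vivo and 94.2%, 89.6% and 99.2% in vitro. These shares overlapped between the groups, and Tns3 was the larger part in every library. Its relative Tns1, a tensin of fibrillar adhesions, showed no such separation. Tns1 was at 1.95, 6.70 and 32.4 CPM in vivo against 13.5, 15.7 and 2.08 CPM in vitro. The lowest and the highest value of Tns1 both came from the in vivo group, and its log2 fold change of −0.39 ± 1.05 (SE) was 1.28 without in vivo replicate 3.

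**Figure D1:**
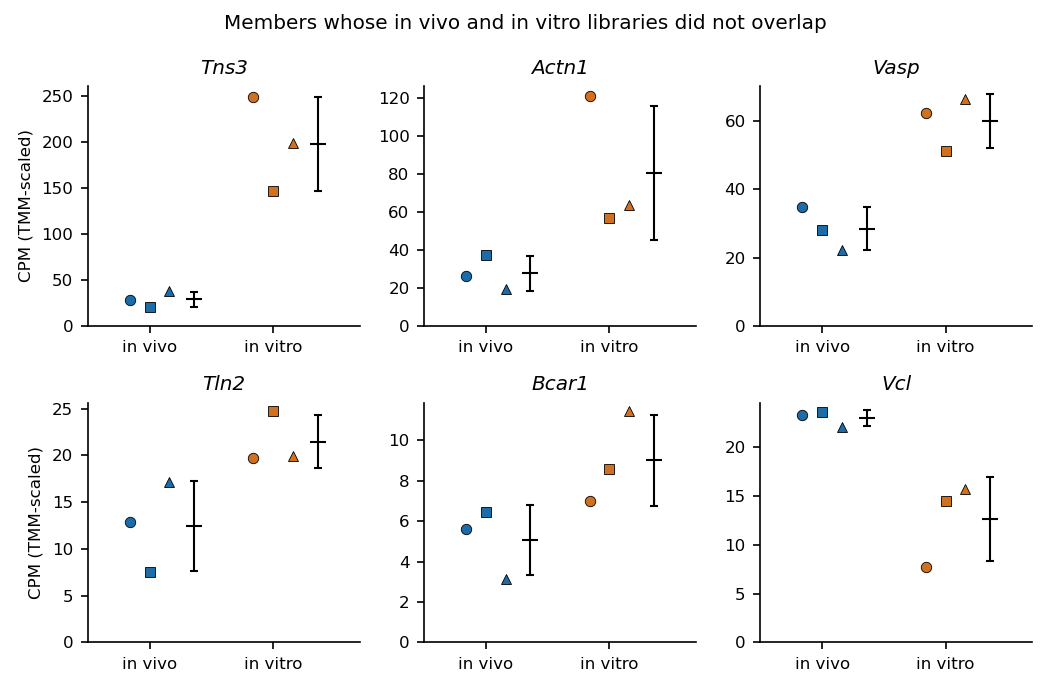
Expression in CPM (TMM-scaled, linear axes from 0) of the 6 tested members whose in vivo and in vitro libraries did not overlap. Points are single libraries (circle, square and triangle for replicates 1, 2 and 3), and the black bar is the mean with its SD (n = 3). Tns3 lay from 20.7 to 37.7 CPM in vivo, and its in vitro libraries lay at 147 CPM or above, and Vcl is the member with lower values in vitro.

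After Tns3, the smallest p-values were those of Actn1 and Vasp, both actin linkers. Actn1, the alpha-actinin that crosslinks actin at focal adhesions, was at 26.3, 37.4 and 19.3 CPM in vivo against 121, 57.1 and 63.8 CPM in vitro. Its groups did not overlap, and in vitro replicate 1 stood above the other libraries. The log2 fold change of Actn1 was 1.54 ± 0.43 (SE), with an adjusted p of 0.353 by edgeR's quasi-likelihood test and 0.0445 by DESeq2. Vasp, which promotes growth of actin filaments, was at 34.9, 28.3 and 22.3 CPM in vivo against 62.4, 51.4 and 66.6 CPM in vitro. All 3 in vitro libraries were above all 3 in vivo libraries, with a log2 fold change of 1.08 ± 0.35 (SE) and adjusted p-values of 0.398 by edgeR and 0.134 by DESeq2. Vcl, which encodes vinculin, the protein that binds talin under tension and reinforces its link to actin, had the opposite direction. It was at 23.3, 23.5 and 22.0 CPM in vivo against 7.69, 14.5 and 15.8 CPM in vitro. The in vivo libraries were nearly equal and all above the in vitro ones. Its log2 fold change was −0.86 ± 0.49 (SE) with an adjusted p of 0.590 by edgeR. Of its exon bases, 10.4% are shared with Ap3m1 on the opposite strand, and the library kit does not mark strand, so part of the Vcl counts may belong to that gene.

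The other actin linkers overlapped between the groups. Actn4, the second non-muscle alpha-actinin, had the highest mean level per kilobase of the actin linkers and was at 168, 154 and 249 CPM in vivo against 255, 314 and 148 CPM in vitro. Actn1 made up 12.9%, 18.7% and 6.83% of the summed level of both alpha-actinins per kilobase in vivo and 31.0%, 14.6% and 28.9% in vitro, so Actn4 was the larger in every library. Zyx, the zyxin of mature adhesions, was at 99.1 to 108 CPM in 4 libraries and at 43.1 and 39.3 CPM in in vivo replicate 3 and in vitro replicate 1. Enah, a relative of Vasp, was at 190.7 ± 91.5 and 176.2 ± 13.4 CPM and Lpp, a relative of zyxin, at 41.6 ± 20.5 and 56.7 ± 21.1 CPM (SD, n = 3 each). Flna, the X-linked filamin that crosslinks actin and holds integrin tails inactive, was at 24.2, 31.8 and 40.4 CPM in vivo against 20.3, 14.5 and 30.8 CPM in vitro. The lowest of these 6 values was that of in vitro replicate 2, the library high in Xist. The highest was that of in vivo replicate 3, which had 341 counts of Xist. A link between Flna and Xist was not tested.

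Sequence upstream of the annotated start was available for 28 of the 37 members, as 35 windows of 250 bases from RefSeq (GRCm38.p6). The sequences of 3 actin linkers whose groups did not overlap are shown, up to the first base of any annotated exon and 5′ to 3′ on the gene's strand. Tns3 is not shown because 223 of its 250 bases fall in an exon of the gene. Capitals mark, on either strand, the CArG box that serum response factor binds, the TEAD motif GGAATG and the GC box GGGCGG. GC boxes may overlap each other, and in Vcl a pair of them lies 1 base from the TEAD motif.
Vcl (chr14:20929148-20929382, plus strand): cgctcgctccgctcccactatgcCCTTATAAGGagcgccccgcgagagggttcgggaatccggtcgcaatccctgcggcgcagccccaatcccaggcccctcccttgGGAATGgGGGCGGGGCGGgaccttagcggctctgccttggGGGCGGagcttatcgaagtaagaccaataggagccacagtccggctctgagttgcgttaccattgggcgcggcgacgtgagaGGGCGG
Actn1 (chr12:80260421-80260613, minus strand): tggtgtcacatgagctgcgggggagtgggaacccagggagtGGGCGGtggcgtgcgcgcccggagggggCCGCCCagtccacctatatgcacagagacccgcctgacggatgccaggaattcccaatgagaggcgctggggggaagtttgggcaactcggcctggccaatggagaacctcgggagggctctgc
Vasp (chr7:19271855-19272104, minus strand): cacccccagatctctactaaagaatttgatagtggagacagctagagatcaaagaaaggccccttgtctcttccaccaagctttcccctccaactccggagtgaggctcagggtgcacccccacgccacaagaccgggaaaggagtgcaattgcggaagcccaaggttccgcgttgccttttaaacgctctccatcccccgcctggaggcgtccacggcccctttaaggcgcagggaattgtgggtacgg

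A CArG box was found in the windows of Vcl and Fermt2, which is 2 of 35 member windows (5.71%) against 1.1% of the 11798 windows of genes tested. GGAATG was found in 5 member windows (14.3%), those of Actn4, Flna, Itgb1, Lpp and Vcl, against 10.7%. The AP-1 motif TGANTCA was found in 2 (5.71%, Actn4 and Zyx) against 4.21%, and the GATA motif AGATAA in 1 (2.86%, Lims1) against 6.12%. GC boxes were found in 21 (60.0%) against 56.4%. Vasp held none of the 5 motifs in its 250 bases, and Tns3 held GC boxes only. The members' windows had a median GC content of 65.2%, against 59.6% for genes tested. These matches describe letters in the windows, with no test. Windows were searched in full, bases of annotated exons included. All 250 bases of the Fermt2 window and the GATA match of Lims1 lie in such exons.

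Talins and kindlins bind integrin tails and activate the receptor. Tln2, the talin with the lower level per kilobase, was at 12.9, 7.50 and 17.1 CPM in vivo against 19.8, 24.8 and 19.9 CPM in vitro. Its groups did not overlap, but the gap between them was small beside the spread in vivo, and its log2 fold change was 0.78 ± 0.51 (SE). Tln1 was at 21.0 ± 2.33 and 29.2 ± 6.88 CPM (SD, n = 3 each) and held 60.9% to 78.6% of the talin level per kilobase. Fermt2, the kindlin of most tissues, was at 30.5 and 52.8 CPM in in vivo replicates 1 and 2 but had 0 counts among the 17643429 of in vivo replicate 3, which allows at most 0.215 CPM there. In vitro it was at 6.12, 26.5 and 38.8 CPM. Fermt2 was the only member with at least 500 counts over the 6 libraries that was at 0 in any of them, 1 of 28 such members (3.57%) against 2.38% of such genes overall. Fermt1, the epithelial kindlin, had at most 40 counts in a library. Itgb1bp1, which competes with talin for the tail of integrin beta 1, was at 13.6 to 20.3 CPM in 5 libraries and at 2.45 CPM in in vitro replicate 1. Of its exon bases, 14.3% are shared with Asap2 on the opposite strand.

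Among adhesion signalling genes all 4 log2 fold changes were positive, beside 49.8% of all genes, and none passed the test. Bcar1, the scaffold p130Cas that SRC phosphorylates, was at 5.62, 6.47 and 3.15 CPM in vivo against 6.995, 8.56 and 11.5 CPM in vitro, with no overlap between groups. Its log2 fold change was 0.83 ± 0.72 (SE), from 40 to 117 counts per library. Src was at 4.37, 3.43 and 8.59 CPM in vivo against 4.2, 15.1 and 24.6 CPM in vitro, and Pxn, the scaffold paxillin, at 6.72, 5.67 and 5.15 CPM in vivo against 2.80, 15.3 and 22.5 CPM in vitro. Both genes were high in in vitro replicates 2 and 3 only, and in vitro replicate 1 lay inside or below the in vivo range. Ptk2, which encodes FAK, was at 19.6 ± 10.99 and 22.8 ± 6.66 CPM (SD, n = 3 each).

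The ILK complex joins ILK, a pseudokinase, to PINCH (Lims1) and parvin (Parva), with Rsu1 bound to PINCH. Its members did not separate the groups. Lims1 was at 34.5 ± 6.37 and 44.9 ± 13.1 CPM, Ilk at 19.5 ± 1.90 and 17.1 ± 13.6 CPM and Rsu1 at 9.48 ± 4.89 and 6.78 ± 2.08 CPM (SD, n = 3 each). Ilk was even in vivo, at 17.3 to 20.9 CPM, and uneven in vitro, at 5.25, 14.3 and 31.9 CPM. Parva had 25 to 53 counts per library in vivo and 0, 78 and 2 counts in vitro. Of the exon bases of Ilk, 7.29% are shared with Rrp8 on the opposite strand.

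**Figure D2:**
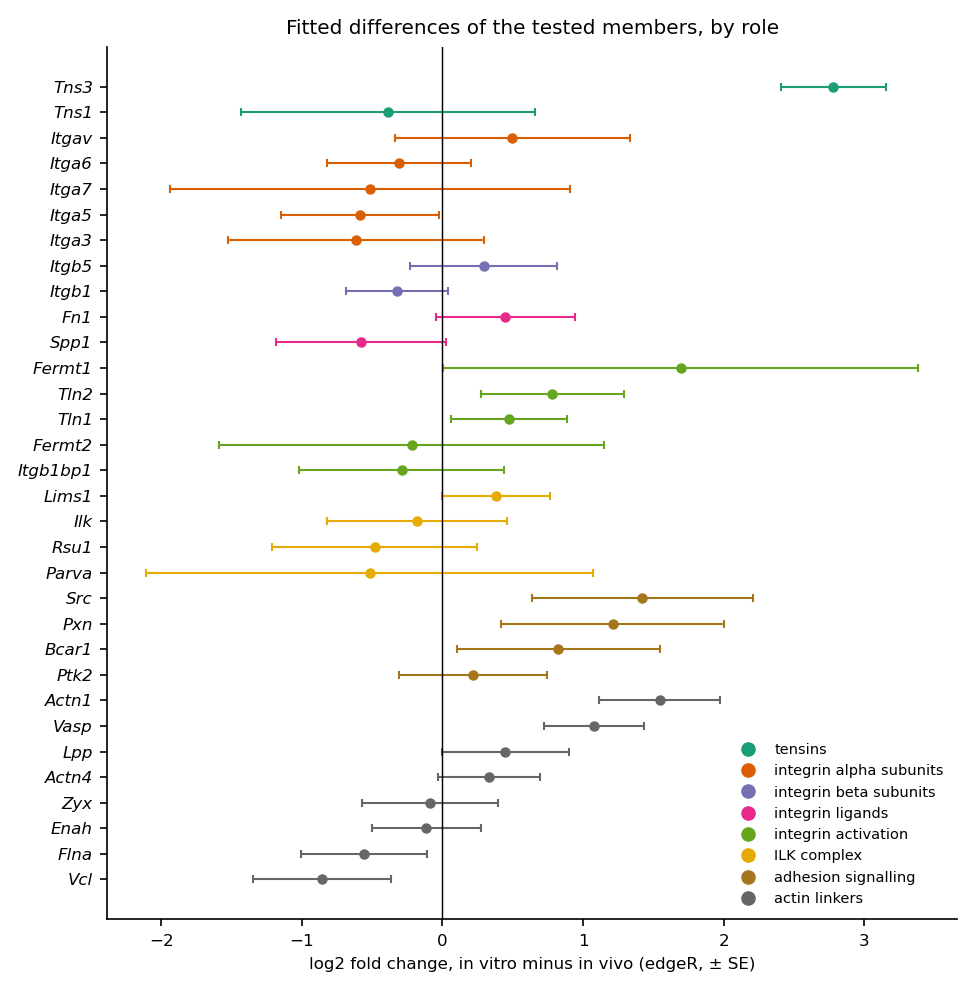
Fitted log2 fold changes (in vitro minus in vivo, edgeR) of the 32 tested members, ordered by role and coloured by it, with bars of 1 SE. Tns3 at 2.78 and Actn1 at 1.54 lie farthest from 0 relative to their errors, and the integrin subunits lie between −0.61 and 0.50.

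Integrin subunits set which matrix proteins a cell can bind. Itgb1, the common partner of most alpha subunits, was at 36.5, 45.7 and 61.9 CPM in vivo against 32.7, 38.3 and 44.0 CPM in vitro, which overlapped, with −0.33 ± 0.36 (SE) as its log2 fold change. Itgb5, the partner of Itgav in vitronectin receptors, was at 19.9 ± 6.5 and 24.4 ± 11.7 CPM. Itga6, the laminin receptor subunit, was the highest alpha subunit per kilobase in 5 of 6 libraries and made up 50.0% to 59.0% of the summed alpha level in vivo. In vitro its share was 79.3%, 52.7% and 28.5%. In in vitro replicate 3, Itgav, the subunit of vitronectin and fibronectin receptors, took 56.5% of that sum, against 8.08% to 17.6% elsewhere. Itgav itself was at 13.4, 24.9 and 77.7 CPM in vivo against 14.9, 27.7 and 121 CPM in vitro, so replicate 3 of each group was the high one. Itga5, the fibronectin receptor subunit, was at 16.5 to 22.8 CPM in vivo against 8.22, 20.6 and 8.46 CPM in vitro. Itga3, another laminin receptor subunit, was at 9.84, 9.82 and 34.8 CPM in vivo against 3.67, 27.9 and 3.77 CPM in vitro, 1 high library in each group. Itga7, the muscle laminin receptor subunit, was at 0.175 to 9.52 CPM. No tested alpha or beta subunit separated the groups.

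The most abundant product of the list was a ligand. Spp1, which encodes the secreted integrin ligand osteopontin, had the highest level per kilobase of the 37 members, at 449, 194 and 80.9 CPM per kilobase in vivo and 262, 127 and 95.1 in vitro. Both groups thus spanned a wide range and overlapped, and the log2 fold change of −0.58 ± 0.60 (SE) was 0.21 without in vivo replicate 1, the highest library. Fn1, fibronectin, was at 87.2, 52.2 and 201 CPM in vivo against 196, 110 and 159 CPM in vitro. Its log2 fold change of 0.45 ± 0.49 (SE) was 1.16 without in vivo replicate 3, which was above every in vitro library. Markers of uterine epithelium, which also makes osteopontin, had a summed level of 9.82 to 37.3 CPM in vivo against 9.76 to 45.8 CPM in vitro over 8 genes, with Ltf, Lcn2, Pgr and Sprr2f at 0 in all libraries. Only 3 of the uterine markers were tested, with a median log2 fold change of −1.74, 1 positive and 2 negative. By edgeR, 1 was lower in vitro at an unadjusted p below 0.05 (33.3%, beside 10.2% of all genes in either direction). In 1 of the 3 tested markers (33.3%) all in vitro libraries lay below all in vivo libraries, beside 10% of all genes. The part of uterine cells in the Spp1 values was not tested. Of 8 cumulus and granulosa markers, 6 were at 0 in all libraries.

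**Figure D3:**
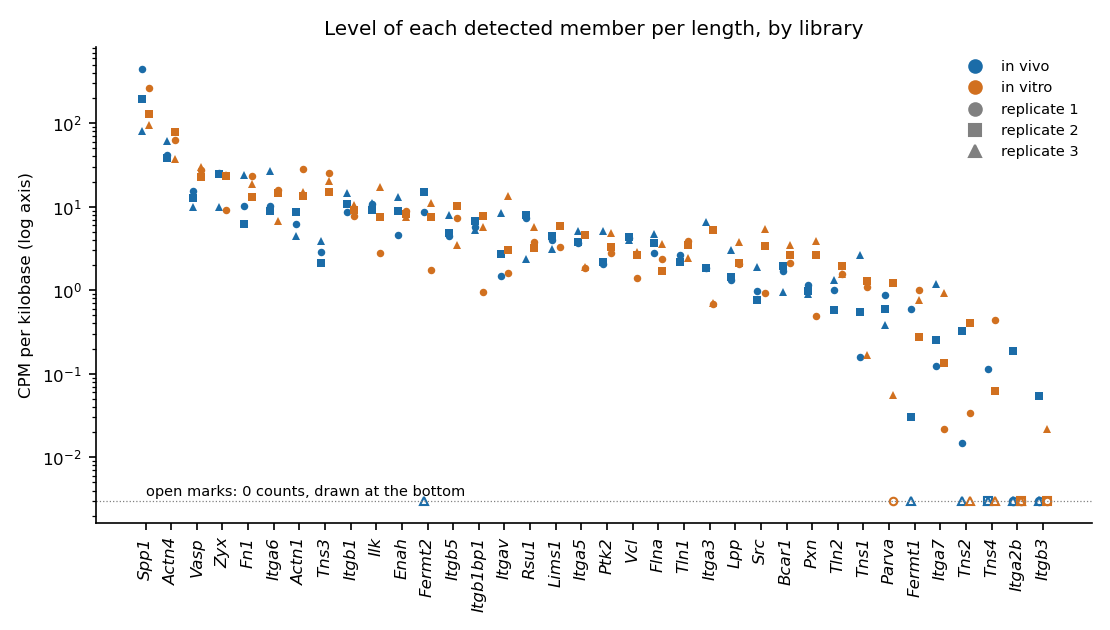
Level of the 36 detected members in CPM per kilobase (log axis), ordered by the mean over 6 libraries, with blue for in vivo, orange for in vitro and a mark for each replicate number. Spp1 had the highest mean (201), followed by Actn4 (53.1), and open marks at the bottom are libraries with 0 counts, among them Fermt2 in in vivo replicate 3.

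**Figure D4:**
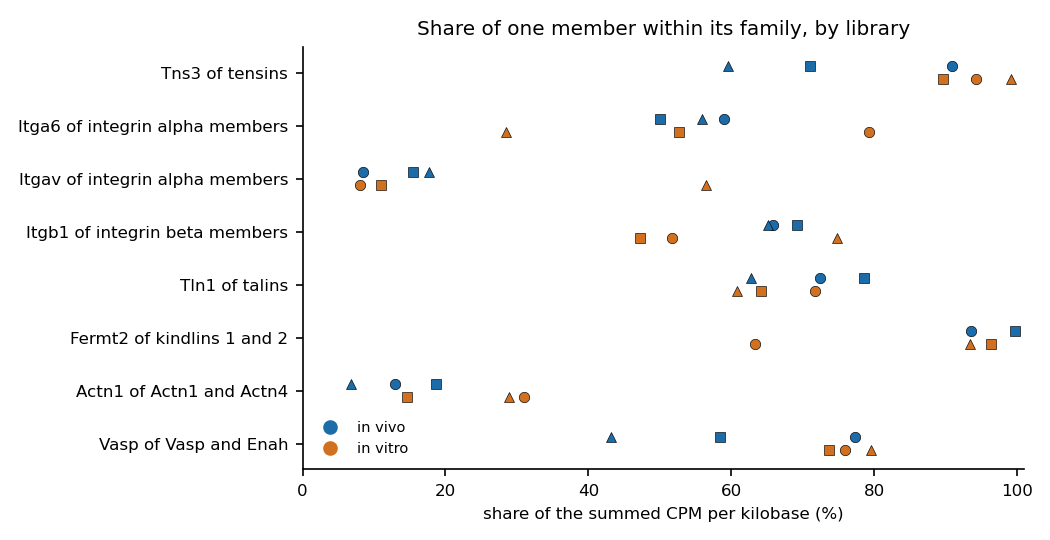
Share (%) of a single gene in the summed CPM per kilobase of its family, 1 point per library. Tns3 made up 59.6% to 99.2% of the tensins, and Itgav stood out in in vitro replicate 3 at 56.5% of the integrin alpha members, and the kindlin share has no point for in vivo replicate 3, where both genes had 0 counts.

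Over the list, 5 of the 32 tested members were higher in all in vitro than in all in vivo libraries (Tns3, Actn1, Vasp, Tln2 and Bcar1) and 1 was lower (Vcl). That is 18.8% of the members, beside 19.3% of all genes tested, so the share was near the background. By direction the members had 15.6% higher and 3.12% lower, beside 9.27% and 10% of all genes. Scaled by library totals alone, which moved the median of all genes by −0.31, 3 members were higher (Actn1, Tns3 and Vasp) and 3 lower (Flna, Itgb1 and Vcl), beside 16.2% of all genes. With DESeq2's size factors the 6 members were those named first, beside 19.2% of all genes. Without in vivo replicate 1, 7 members were higher and 4 lower (34.4%), beside 25.7% of all genes. Without in vivo replicate 2 the members were 5 and 1 (18.8%), beside 24.1%. Leaving out in vivo replicate 3 gave 8 and 3 (34.4%), beside 37.5%. Without in vitro replicate 1 they were 8 and 1 (28.1%), beside 27.9%, without in vitro replicate 2 they were 6 and 4 (31.2%), beside 33.6%, and without in vitro replicate 3 they were 7 and 3 (31.2%), beside 29.9%. Tns3, Actn1 and Vasp were higher and Vcl was lower under both other scalings. CPM values were not rescaled when a library was left out. Groups that did not overlap with all 6 libraries therefore could not overlap there, and those settings could only add members.

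EdgeR's quasi-likelihood test called 0 of the 32 members and 0 of 14301 genes (0%) at an adjusted p below 0.05. At an unadjusted p below 0.05 it had 3 members (9.38%, Tns3, Actn1 and Vasp), all higher in vitro, beside 1458 genes (10.2%; 5.11% higher and 5.08% lower). DESeq2 called 2 members (6.25%, Tns3 and Actn1), both higher, beside 339 genes (2.37%; 1.2% higher and 1.17% lower). Limma-voom called 1 member (3.12%, Tns3, higher), beside 102 genes (0.713%; 0.441% higher and 0.273% lower). The newer form of edgeR's test called Tns3 and 2 other genes (0.021% of genes in all). With no filter on low counts, edgeR called 1 of 36 members (2.78%, Tns3, higher), beside 391 of 27882 genes (1.4%; 0.656% higher and 0.746% lower). Since this contrast was known when the list was made, nothing is read from these shares. The edgeR fit with no filter gave Tns3 a larger SE than the main fit (0.44 against 0.38) but a smaller unadjusted p (4.44e-10 against 3.75e-05). The smaller p of Tns3 with no filter thus came with a larger SE, and the reason was not tested. Of the log2 fold changes of the main fit, 16 were positive and 16 negative, beside 49.8% positive and 50.2% negative over all genes. Their median was 0.06, beside −0.01 over all genes. The median was 0.45 without in vivo replicate 3, with 21 positive and 12 negative of 33 members then tested, beside 0.05 over all genes.

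Genes of 3 related lists gave the setting. Of 47 other focal adhesion proteins, 34 were tested, with 25 positive (73.5%, beside 49.8% of all genes) and 9 negative log2 fold changes and a median of 0.60, beside −0.01. EdgeR called none of them, with 6 at an unadjusted p below 0.05 (17.6%, beside 10.2%), all higher in vitro. DESeq2 called 2 higher and 0 lower (5.88%, beside 2.37%). The called genes were Dlc1, a protein that tensins bind, and Ajuba, a LIM protein of adhesions. Dlc1 was at 6.72, 5.11 and 12.03 CPM in vivo against 40.7, 34.5 and 46.7 CPM in vitro. Like Tns3, it was higher in every in vitro library than in any in vivo library, with a log2 fold change of 2.35 ± 0.49 (SE), an adjusted p of 0.306 by edgeR, 0.014 by edgeR with no filter and 0.00124 by DESeq2. Ajuba was at 5.47, 5.35 and 2.72 CPM in vivo against 36.2, 15.9 and 15.6 CPM in vitro, with adjusted p-values of 0.342 by edgeR and 0.0242 by DESeq2. The genes of highest level per kilobase in this list were Rap1b, a small GTPase that recruits talin, Tes, which encodes testin, and Pdlim1. Rap1b was at 88.9 ± 62.9 and 123 ± 72.5 CPM, Tes at 158 ± 59.1 and 107 ± 10.4 CPM and Pdlim1 at 36.3 ± 7.04 and 62.3 ± 15.6 CPM (SD, n = 3 each). Among these, Pdlim1 had no overlap between groups. Rap1b has close copies in the genome that may share counts, and its difference was 0.47 on the log2 scale and −0.05 when scaled by library totals alone.

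**Figure D5:**
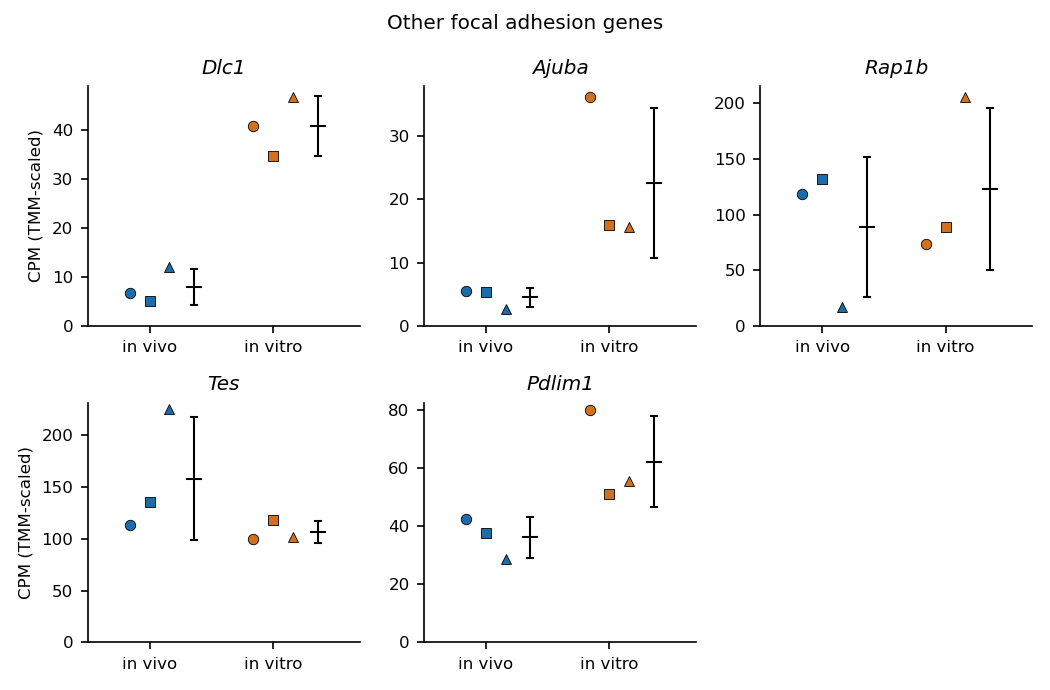
Expression in CPM (TMM-scaled, linear axes from 0) of 5 other focal adhesion genes, drawn as points per library (circle, square and triangle for replicates 1, 2 and 3) with the mean and SD (n = 3). Dlc1, Ajuba and Pdlim1 were higher in all in vitro libraries, and Rap1b and Tes overlapped.

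Of the 24 matrix ligands found in the table, 15 were tested, with 11 positive (73.3%, beside 49.8% of all genes) and 4 negative values and a median of 0.46. DESeq2 called 2 of them higher (13.3%, beside 2.37%). EdgeR called none, with 2 higher and 1 lower at an unadjusted p below 0.05 (20%, beside 10.2%). The called genes were the basement membrane genes Lama1, at 15.4, 4.47 and 23.9 CPM in vivo against 221, 119 and 50.9 CPM in vitro, and Hspg2, which encodes perlecan, at 1.87, 0.798 and 0 CPM in vivo against 83.8, 30.9 and 7.68 CPM in vitro. EdgeR's adjusted p-values were 0.311 and 0.315. With no filter edgeR's adjusted p-values were 4.99e-08 and 6.69e-10, in the fit that gave Tns3 a smaller p despite a larger SE. The ligands of highest level, Lamb1, Col4a1 and Nid1, overlapped between the groups. Lamb1 was at 94.4 ± 81.6 and 189 ± 120 CPM, Col4a1 at 106 ± 120 and 147 ± 94.7 CPM and Nid1 at 93.0 ± 18.3 and 75.6 ± 21.1 CPM (SD, n = 3 each). Of 17 other integrin subunits, only 4 had enough counts to be tested and 5 were at 0 throughout, Itgb2 among them. None of the 4 passed a test, with Itgae at 8.31 ± 7.26 and 1.71 ± 1.66 CPM and Itga11 at 1.71 ± 0.401 and 0.921 ± 1.48 CPM (SD, n = 3 each). Itga9 was at 0, 0.0798 and 0 CPM in vivo against 0, 2.05 and 13.3 CPM in vitro, and Itga1 at 3.98 CPM or less. Itga9 was removed by the filter on low counts. With no filter, edgeR gave it an adjusted p of 0.0471, from 1 count in vivo and from 28 and 102 counts in in vitro replicates 2 and 3.

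Markers of the lineages of the blastocyst were summed in each library. The summed level of 14 primitive endoderm markers was 522 to 859 CPM in vivo against 911 to 1521 CPM in vitro, with no overlap. Scaled by library totals alone, it was 639 to 835 CPM in vivo against 759 to 1316 CPM in vitro, and the groups overlapped. None of the 14 was at 0 in all libraries. Of the 13 tested markers, 12 had a positive log2 fold change (92.3%, beside 49.8% of all genes). DESeq2 called 4 of them higher and 1 lower (38.5%, beside 2.37% of all genes). Lama1 and Col4a1 are also in the list of matrix ligands. The summed level of 14 trophectoderm markers was 874 to 1785 CPM in vivo against 1612 to 2749 CPM in vitro, and that of 12 epiblast markers 792 to 944 and 660 to 1381 CPM, both with overlap. Positive log2 fold changes made up 78.6% of the trophectoderm markers and 50% of the epiblast markers, beside 49.8% of all genes. DESeq2 called 1 trophectoderm marker higher and 0 lower (7.14%) and 0 epiblast markers (0%), beside 2.37% of all genes. Counts of Rn18s-rs5, a ribosomal RNA gene, were 16.7%, 22.2% and 41.7% of the in vivo totals and 36.1%, 35.8% and 40.4% of the in vitro totals. Their part in the values of Tns3, Dlc1 and the actin linkers was not tested, except that the log2 fold change of Tns3 was 2.77 with Rn18s-rs5 left out.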

How the data were processed

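Values are raw counts of reads per gene, in 1 table that the authors deposited with a column for each of 6 libraries. FastQC 0.11.2, DESeq2 and the build GRCm39 are listed per the submitters' processing notes. The sources used here do not name an aligner, a counter or a strand setting. Gene coordinates in the table equal those of RefSeq on GRCm38.p6 for 37 of 37 members, so GRCm38 is used. Gene lengths are the table's own and include all annotated exons, which lowers CPM per kilobase for genes with long or unused exons.

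Groups and replicate numbers come from the sample titles. Low-count genes were removed with edgeR's filterByExpr at its defaults (14301 genes left). Counts were scaled by TMM and compared by the two-sided quasi-likelihood test in its legacy form with robust moderation (edgeR 4.0.16, R 4.3.3), with Benjamini-Hochberg adjustment over all genes and a threshold of 0.05. SEs were derived from the F statistic. DESeq2 1.42.0 (on the same genes) and limma 3.58.1 (voom with quality weights) were run beside it. These 3 tests were first tested on simulated data, the newer edgeR form was not. Alternatives were other scalings, no filter beyond at least 1 count, a filter of at least 5 CPM in at least 3 libraries, Rn18s-rs5 left out, a replicate block, and each library left out; counts of members whose groups do not overlap, and marker sums, were recomputed as alternatives chosen after seeing the data. Log2 CPM for correlations had a prior count of 2.

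The members and lists were chosen with earlier results of these data known. All 37 members are accounted for; from each of the 3 related lists the 3 genes of highest mean level per kilobase and the 2 of smallest p were to be named. Other genes are named as markers, as overlapping a member, or, for Itgb2, as an example chosen after its values were seen. The symbols Cyr61 and Ctgf, older names of Ccn1 and Ccn2, had no match. 1 further list is not reported here. Each motif was searched on both strands.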

Additional observations from a re-analysis of the deposited data

How the results depend on the processing

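By edgeR, 0 genes and 0 members were called in each of the 6 fits that left out a library, with DESeq2's size factors, library totals alone, Rn18s-rs5 left out, the stricter filter or no robust moderation. DESeq2 called 339 genes and 2 members, limma-voom 102 and 1, the newer edgeR form 3 and 1, and edgeR without a filter on low counts 391 and 1, and Tns3 was called each time. The cause was not tested. With no filter, the SE of Tns3 was larger than in the main fit (0.44 against 0.38). Its unadjusted p by edgeR was nevertheless smaller (4.44e-10 against 3.75e-05), and the reason for this was not tested either. The members' median log2 fold change of 0.06 was 0.41 with limma-voom and ranged from −0.090 to 0.45 over the fits that left out a library. The count of members whose groups do not overlap, 6 with all libraries, lay between 6 and 11 over the 6 libraries left out in turn, where fewer samples make separation easier and the share of all genes lay between 24.1% and 37.5%. Of 32 tested members, 18 kept their sign under every alternative that tested them (Fermt1 was not tested under the stricter filter) and 14 changed it when some library was left out; none changed sign under the other scalings. With the replicate number as a block, 0 genes and 0 members were called and the median was 0.27. Deviations of same-numbered libraries correlated at −0.10, 0.10 and −0.04, and not every library correlated best with its own number. With so few libraries per group this cannot decide whether same-numbered libraries are pairs. Low counts limit Parva, Fermt1, Itga7 and the 5 members not tested.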
